A study of Mus musculus with 40 samples.

Results

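The chromodomain helicase DNA-binding (CHD) proteins are a family of ATP-dependent chromatin remodelers with 9 members in the mouse, Chd1 to Chd9. The members were found by their official gene symbols, and all 9 were listed in both tables of the authors' comparison, among 17940 genes (E14.5) and 15449 (E18.5). Poly(A) RNA from the forebrain of male mouse embryos was sequenced. At embryonic stage E14.5 and again at E18.5, 5 wild-type libraries (WT) were set against 5 libraries of the genotype labelled Chd8 KI, which the study's title describes as a duplication of Chd8. Whether KI is heterozygous or homozygous, how many copies were added, where they lie, which promoter drives them and the strain background are not given in the sources used here. For each gene the tables list a mean normalized count over the libraries of that stage and a log2 fold change with its standard error (SE). Neither table has a column per library, so values by library, their overlap between genotypes and the depth of each library are unknown here, and the SE of 5 against 5 libraries is the measure of error. Whether embryos of a genotype were littermates is not stated, so the p-values measure only the spread between these libraries.

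Every CHD protein carries paired chromodomains beside a SNF2-type motor that uses ATP to slide, space, exchange or evict nucleosomes. In some members the chromodomains can bind methylated histone tails. The family is usually divided into subfamily I (Chd1 and Chd2), subfamily II (Chd3, Chd4 and Chd5) and subfamily III (Chd6, Chd7, Chd8 and Chd9). Several members are disease genes of the developing brain. CHD8 is among the genes most often mutated in autism, CHD7 is the gene of CHARGE syndrome, and CHD2 is a gene of childhood epilepsy.

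A gene is called changed when its value of adjusted p in the authors' deposited table (DESeq2 Wald test, Benjamini-Hochberg adjustment over all genes tested) is under 0.05. By this rule 1.21% of the 13417 genes tested were called at E14.5, and 0.738% were called higher in KI. At E18.5 the shares of the 13601 genes tested were 0.0662% and 0.0441%. Among the CHD genes, Chd8 alone was called at each stage, in the direction of higher in KI. The tables do not name the genotype of the numerator, so the direction was read from Chd8, the gene that was added, and Chd8 is therefore no independent check of the labels. The labelled tissue was checked against markers: all 9 forebrain markers examined were present and tested at both stages. Of 13 hindbrain and spinal cord genes looked for, 3 were listed at E14.5 and 2 at E18.5, none above a mean of 83.4. Only Gbx2 was tested, named after its values were seen, and it was not called. By the authors' deposited table it was at 0.38 (SE 0.158, adjusted p = 0.273) at E14.5. At E18.5 it was at 0.70 (SE 0.224, adjusted p = 0.347). Whether dissection differed between the genotypes was not tested.

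The member that changed was Chd8 (NCBI gene ID 67772; chromosome 14, 52198151 to 52258042, GRCm38), whose protein binds promoters of active genes and is also known as a partner of beta-catenin and of CTCF. At E14.5 the log2 fold change of Chd8 in the authors' deposited table was 0.64 (SE 0.031, adjusted p = 1.49e-88). That is 55.8% above WT, with a 95% interval of 49.3% to 62.6%. At E18.5 the authors' deposited table puts it at 0.51 (SE 0.038, adjusted p = 1.34e-37), which is 42.5% above WT (95% interval 35.4% to 50.1%). Its mean normalized count was 6900 at E14.5 and 6202 at E18.5. As both sides had 5 libraries, these means and fold changes correspond to an estimated 5395 in WT and 8405 in KI at E14.5, and to 5114 in WT and 7290 in KI at E18.5. Chd8 had the largest Wald statistic of all genes tested at both stages. It did not have the largest fold: 9 of the 162 genes called at E14.5, and 1 of the 9 called at E18.5, had a higher log2 fold change. The counts are per gene, so transcripts of the added and of the resident copies are not told apart. How fully those of the added copies were counted is not known here.

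**Figure D1:**
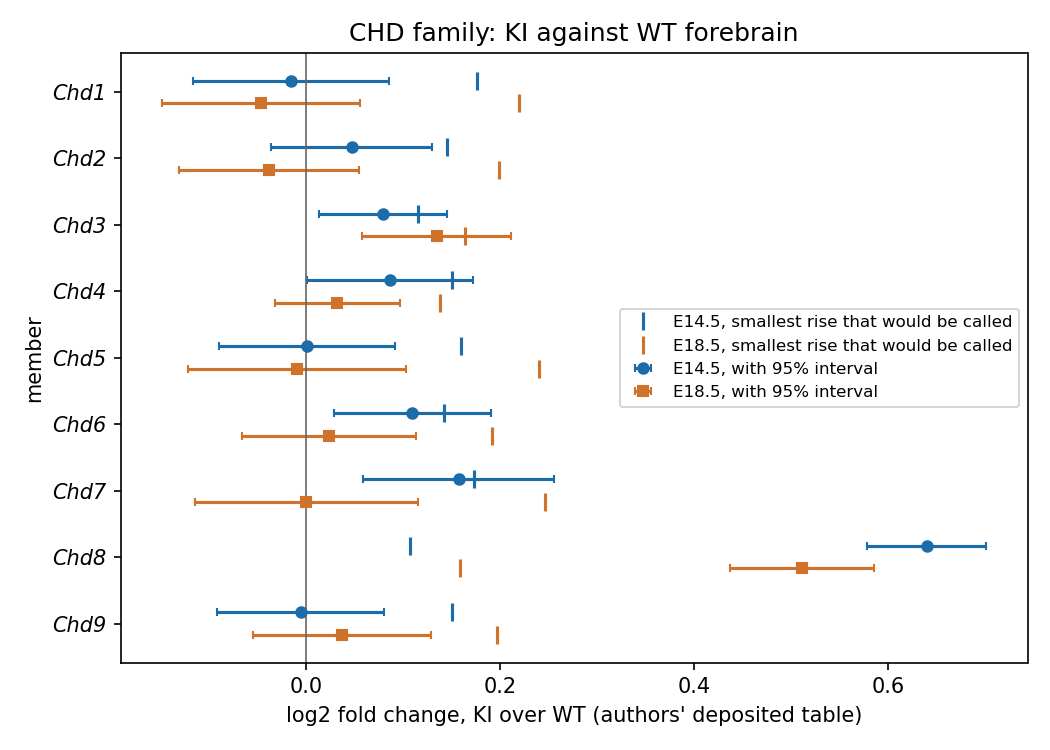
Log2 fold change of KI over WT (x axis) for the 9 CHD genes (y axis) at E14.5 (circles) and E18.5 (squares), with 95% intervals from the authors' SE; the upright ticks mark the smallest rise that would have been called for that gene. Chd8 stands at 0.64 and 0.51, past its tick, and the other 8 members stand short of theirs at both stages.

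No other member was called, and the 95% intervals, each for a single gene, show how precisely its change was measured. They take the SEs as given. Over all genes tested, the spread of the Wald statistic (scaled median absolute deviation) was 1.22 at E14.5 and 0.949 at E18.5. These are wider and narrower than a standard normal, respectively. At E14.5 the upper ends of the 95% intervals of the other 8 members reached 19.4% above WT (Chd7) and the lower ends −7.75% (Chd1). At E18.5 the corresponding bounds were 15.7% above WT (Chd3) and −9.78% (Chd1). The interval of Chd8 began above every one of these upper bounds, at 49.3% and 35.4%. The smallest Wald statistic among called genes was 3.43 at E14.5 and 4.21 at E18.5. Given the members' own SEs, a log2 change of 0.12 to 0.18 at E14.5 and of 0.14 to 0.25 at E18.5 would thus have been needed for a call among those 8. The plot of log2 fold changes by member shows these limits beside the measured values.

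Chd7 and Chd6, of the same subfamily as Chd8, came closest after it at E14.5. Chd7 (chromosome 4, 8690402 to 8868449), which works with SOX2 in neural progenitors, stood at 0.16 (SE 0.050, p = 0.00178, adjusted p = 0.0835) by the authors' deposited table. The estimated levels were 3469 in WT and 3868 in KI, a difference of 11.5% (95% interval 4.14% to 19.4%). It would have been called at 0.17. At E18.5 the authors' deposited table gives 0.00 for Chd7 (SE 0.059, adjusted p = 1.0), with an interval of −7.62% to 8.30%. For Chd6 (chromosome 2, 160946978 to 161109086), the authors' deposited table gives 0.11 at E14.5 (SE 0.041, p = 0.00819, adjusted p = 0.194) and 0.02 at E18.5 (SE 0.046, adjusted p = 1.0). Chd9 (chromosome 8, 90828302 to 91054516), the last member of the subfamily, stood at −0.01 (SE 0.044, adjusted p = 0.981) and 0.04 (SE 0.047, adjusted p = 1.0) by the authors' deposited table. Its intervals were −6.13% to 5.75% at E14.5 and −3.73% to 9.33% at E18.5.

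Subfamily II holds the ATPases of the nucleosome remodeling and deacetylase (NuRD) complex, which joins remodeling to histone deacetylation. In the developing cortex the 3 are known as mutually exclusive subunits of this complex with distinct roles, used in turn as progenitors become neurons. Chd3 (chromosome 11, 69343273 to 69369499) had the same sign at both stages, at 0.08 (SE 0.034, p = 0.0180, adjusted p = 0.276) and 0.13 (SE 0.039, p = 0.000572, adjusted p = 0.194) by the authors' deposited table. Its estimated levels were 19627 in WT and 20738 in KI at E14.5, and 21246 in WT and 23322 in KI at E18.5. The latter pair differ by 9.77% (95% interval 4.10% to 15.7%). At E18.5, 0.287% of genes tested had a larger absolute Wald statistic than Chd3, yet it fell short of a call, which needed a log2 change of 0.16.

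Chd4 (chromosome 6, 125095980 to 125130591), the main NuRD ATPase of dividing cells, had an E14.5 value of 0.09 (SE 0.044, p = 0.0487, adjusted p = 0.429) and an E18.5 value of 0.03 (SE 0.033, adjusted p = 1.0) by the authors' deposited table. Its E18.5 interval, −2.21% to 6.93%, is the narrowest of the family at that stage. The neuron-enriched Chd5 (chromosome 4, 152338646 to 152390194) was at 0.00 (SE 0.046, adjusted p = 0.998) and −0.01 (SE 0.057, adjusted p = 1.0) by the authors' deposited table. Its intervals ran from −6.06% to 6.56% at E14.5 and from −8.06% to 7.39% at E18.5.

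Subfamily I consists of remodelers that accompany RNA polymerase II through transcribed genes. Chd1 (chromosome 17, 15704967 to 15772612), which binds histone H3 methylated on lysine 4, stood at −0.02 (SE 0.051, adjusted p = 0.952) and −0.05 (SE 0.052, adjusted p = 1.0) by the authors' deposited table. For Chd2 (chromosome 7, 73426652 to 73541746), the authors' deposited table has 0.05 (SE 0.042, adjusted p = 0.737) for E14.5, then −0.04 (SE 0.047, adjusted p = 1.0) at E18.5. All 4 intervals include 0.

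Across the 9 members, 7 had a log2 fold change above 0 at E14.5, with a median of 0.08, against 49.8% of all genes tested and a median of 0.00. Without Chd8 it was 6 of 8, with a median of 0.06. At E18.5 it was 6 of 9 with a median of 0.02, and 5 of 8 with a median of 0.01 without Chd8. The genes tested at that stage were above 0 in 48.8%, with a median of 0.00. At an unadjusted p under 0.05, 5 members were higher in KI at E14.5 (Chd3, Chd4, Chd6, Chd7 and Chd8), where 6.26% of all genes were higher at that level and 11.5% differed in either direction. At E18.5, 2 were (Chd3 and Chd8), where 3.13% of all genes were higher and 5.96% differed in either direction. The members were chosen with these tables' results known, so these counts are a description.

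Markers of other cell types were read beside these values. For reference, 1.21% of all genes tested were called at E14.5 and 0.0662% at E18.5. At E14.5 all 6 erythroid genes tested were above 0 (median log2 fold change 0.52), and 2 were called, the embryonic globins Hbb-y at 0.50 and Hba-x at 0.59 by the authors' deposited table. At E18.5, 2 of 3 erythroid genes were above 0 and none was called. Of 6 meningeal markers tested at E14.5, 5 were above 0 (median 0.30, none called). Endothelial markers were above 0 in 1 of 7 (median −0.01) and microglial markers in 5 of 6 (median 0.08), none called. At E18.5 all 10 meningeal markers were listed but only 2 were tested, Foxc1 and Pdgfra, both below 0 (median −0.14). Most of the others had no p and large SEs. Named after their values were seen, Col1a2 and Col3a1 had SEs of 1.15 and 1.23 there, against 0.21 and 0.15 at E14.5. The E18.5 median therefore says little of the meningeal list. At that stage 4 of 7 endothelial markers were above 0 (median 0.00) and 6 of 6 microglial markers (median 0.15), none called. Of 10 neuron markers, 9 were below 0 at E14.5 (median −0.03) and 9 above 0 at E18.5 (median 0.03). Of 10 progenitor markers, 6 were above 0 at E14.5 (median 0.05) and 8 below 0 at E18.5 (median −0.07). No progenitor marker was called. Neurod6, a marker of cortical excitatory neurons, fell at E14.5 by 0.20 on the log2 scale (adjusted p = 0.00438), and Dlx1, of inhibitory neurons and their precursors, rose by 0.17 (adjusted p = 0.0369), both by the authors' deposited table. Neither was called at E18.5. The part of any of these in the values of the CHD genes was not tested. In bulk tissue, fewer cells of a type and less RNA per cell cannot be told apart.

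The effect of genotype was next compared between the stages by subtracting the E14.5 log2 fold change from the E18.5 one. The 2 stages share no library, and the difference was tested with a normal approximation on the 2 SEs and Benjamini-Hochberg adjustment over 13106 genes. No gene was called (0% of those tested), while 593 (4.52%) had an unadjusted p under 0.05. Chd8 and Chd7 were among the latter. For Chd8 the difference was −0.13 with a 95% interval of −0.22 to −0.03 (adjusted p = 0.999, from DESeq2's SEs). For Chd7 it was −0.16 with a 95% interval of −0.31 to −0.01 (adjusted p = 0.999, likewise). Neither passed after adjustment. The other 7 members had differences from −0.09 (Chd6 and Chd2) to 0.06 (Chd3), each with an interval that includes 0.

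**Figure D2:**
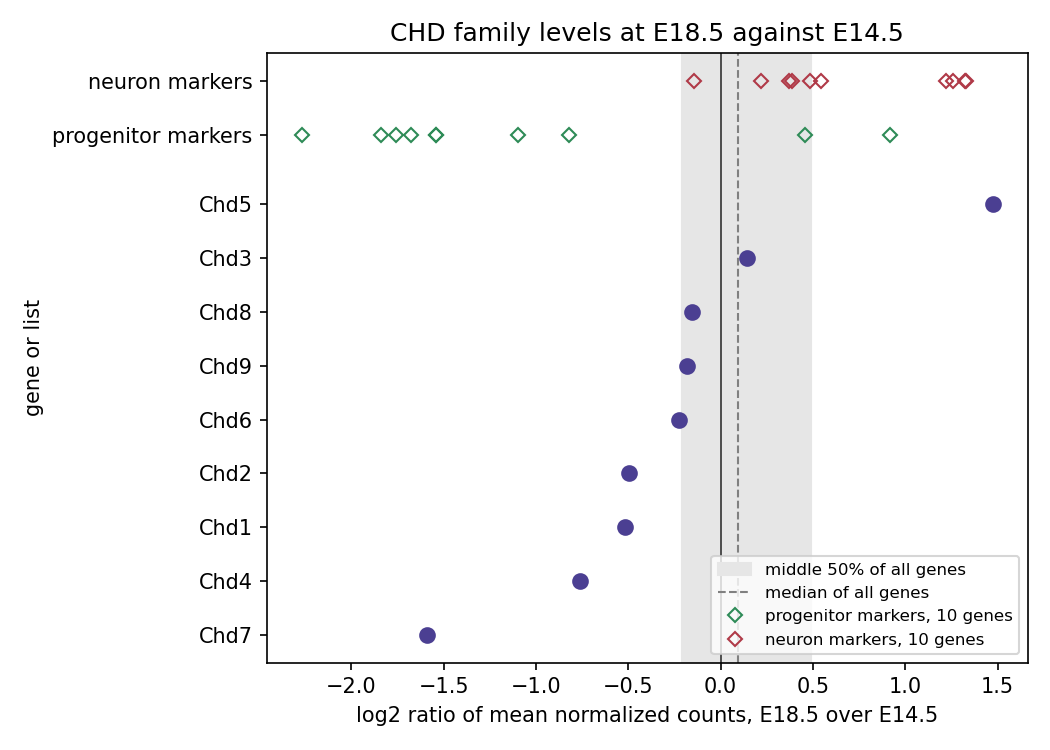
Log2 ratio of the mean normalized count at E18.5 over that at E14.5 (x axis) for each CHD gene, in order of the ratio, and for 10 progenitor and 10 neuron markers; the grey band and dashed line give the middle 50% and the median of all genes. Chd7 lies lowest of the family at −1.59 and Chd5 highest at 1.48, among the progenitor and beyond the neuron markers respectively.

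Mean normalized counts of the members were then set side by side between the stages. The tables were normalized separately, so the ratios have no test and no error. The median log2 ratio of E18.5 over E14.5 was 0.09 over all 13106 genes, with quartiles at −0.21 and 0.49. Chd7 went from a mean of 3669 to 1218, a log2 ratio of −1.59, and 1.86% of genes had a lower ratio. Chd5 went from 2470 to 6868, a log2 ratio of 1.48, above 95.1% of genes. In the order of the ratios these 2 genes stand at the opposite ends of the family.

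Within subfamily II the 3 ATPases took different courses: beside the higher count of Chd5 at E18.5, Chd4 went from 13123 to 7751 (log2 ratio −0.76) and Chd3 from 20182 to 22284 (0.14, or 0.05 relative to the median gene). In subfamily I, Chd1 went from 1984 to 1386 (−0.52) and Chd2 from 3340 to 2369 (−0.50), side by side in the order. Chd6, Chd9 and Chd8 lay together nearer to the middle of all genes, at −0.22, −0.18 and −0.15. Relative to the median gene the ratio of Chd8, with WT and KI pooled, was −0.25, smaller in size than its genotype effect at either stage. In all, 7 of the 9 had a ratio below 0 and below the median gene, against 42.1% of all genes with a ratio below 0. In WT alone, estimated from the means and fold changes, no member's ratio moved by more than 0.081. For Chd8 the estimated ratio was −0.077 in WT and −0.205 in KI, so its pooled ratio takes in the genotype effect. Mean counts of different members are not compared with each other here, since no transcript lengths were used.

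Markers of cell types shifted between the stages in the same tables. Of the 10 progenitor markers 8 had a ratio below 0 (median −1.54), among them Sox2 at −1.10, Pax6 at −1.76 and Nes at −1.68. The exceptions were Fabp7 and Slc1a3, which are also expressed by astrocytes. Of the 10 neuron markers 9 had a ratio above 0 (median 0.51), from 0.22 for Dcx to 1.33 for Gap43, with Neurod6 at −0.14. These single markers were chosen after their values were seen. How far the ratios of Chd7 and Chd5 follow the makeup of the tissue was not tested. The plot of stage ratios sets the 9 genes against both marker lists.

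The 5 protein-coding genes on each side of Chd8 were examined next, because an added copy that carried flanking sequence could also raise its neighbours. The nearest are Supt16, a subunit of the FACT histone chaperone, which ends 911 bases from Chd8, and Rab2b, a small GTPase of the Golgi, 3716 bases away on the other side. Of the 10 neighbours 8 were listed and 7 tested at each stage, and none was called. By the authors' deposited table, Supt16 was at 0.01 (SE 0.039, adjusted p = 0.955) for E14.5, then −0.02 (SE 0.044, adjusted p = 1.0) at E18.5. Rab2b was at −0.01 (SE 0.058, adjusted p = 0.975) and −0.06 (SE 0.057, adjusted p = 1.0) by the authors' deposited table. At an unadjusted p under 0.05, 2 of the 7 neighbours tested were higher in KI at E14.5, beside 6.26% of all genes, and 0 of 7 at E18.5, beside 3.13%. Named after their values were seen, these are Mettl3, an RNA methyltransferase, at 0.14 (SE 0.056, adjusted p = 0.234) and the transcription factor gene Sall2 at 0.11 (SE 0.040, adjusted p = 0.132) by the authors' deposited table. The annotated spans of Rpgrip1 and Supt16 overlap, as do those of Rab2b and Tox4 and of Tox4 and Mettl3. Whether counting used strand is not given in the sources used here.

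**Figure D3:**
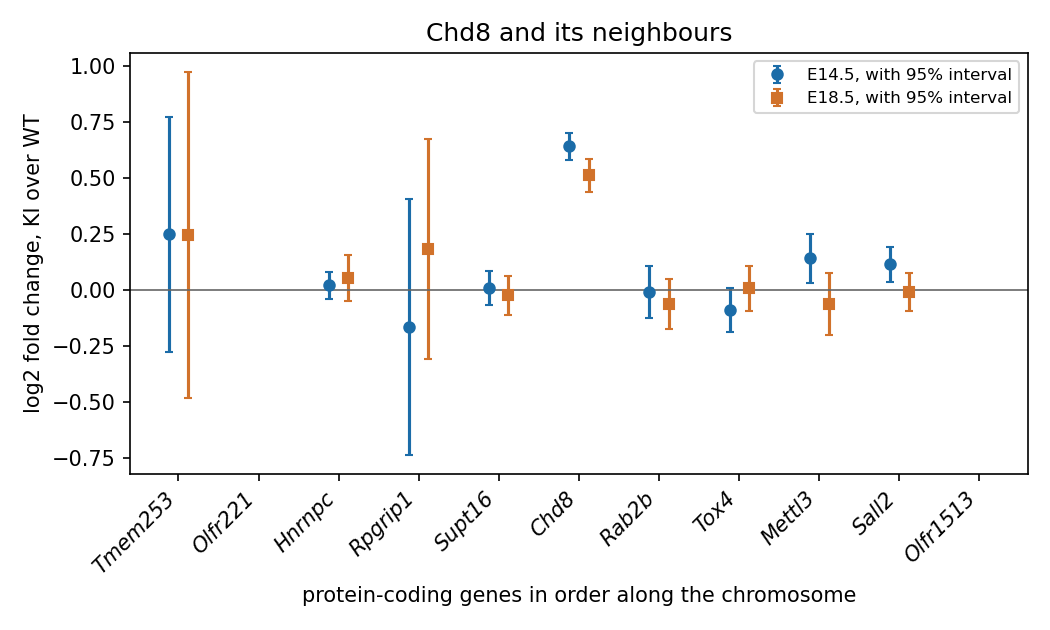
Log2 fold change of KI over WT (y axis) with 95% intervals for Chd8 and the protein-coding genes on each side of it, in their order along the chromosome (x axis; a gene with no point was not listed; Rpgrip1 at E14.5 and Tmem253 at E18.5 were not tested). Chd8 stands at 0.64 and 0.51 between Supt16 (0.01 and −0.02) and Rab2b (−0.01 and −0.06).

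Promoter sequences were at hand for 5 of the members (Chd4, Chd5, Chd6, Chd8 and Chd9), as 8 windows of 250 bases before an annotated start from RefSeq (GRCm38.p6). The windows of Chd4 overlap each other, as do those of Chd5, so the 8 are not separate sequences. Motifs were searched on both strands, and the motifs were chosen after these sequences were seen. The CCAAT box, letters CCAAT and the binding sequence of NF-Y, occurred before Chd4, Chd6 and Chd8, in 3 of the 8 windows, and in 33.8% of all 32851 windows. The lines below set out these occurrences with 12 bases on each side, 5′ to 3′ on the gene's strand, since they include the promoter of the member that changed, beside the other members that share the motif. Capitals mark the motif, which reads ATTGG where it lies on the other strand.
Chd8, chr14:52257819-52257847, minus strand, 75 bases before the start: tccggccacgccATTGGtagatggagggc
Chd4, chr6:125095973-125096001, plus strand, 178 bases before the start: acgggggcgtggCCAATggttgcctgagc
Chd6, chr2:161109237-161109265, minus strand, 167 bases before the start: ctccgacatcgaCCAATcaccgctgcgat
Chd6, chr2:161109123-161109151, minus strand, 53 bases before the start: cagcccacacgaCCAATgaacctgtgttt
Chd6, chr2:161109092-161109120, minus strand, 22 bases before the start: ggcaggcgaaacCCAATagcgcggcaggg

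The annotated starts used for Chd8 and Chd4 are not the outermost of these genes, so the matches before them lie within the gene's full annotated extent or at its edge. None of the 5 stretches holds the GC box GGGCGG. That box was found in 7 of the 8 windows, at least 1 for each of the 5 genes, against 32.7% of all windows. The E-box CACGTG and the ETS core CCGGAAG were in none of the 8, against 6.02% and 6.91% of all windows. The window of Chd8 is 70.0% G and C and the median window 52.4%. Its ratio of observed to expected CpG is 0.65 and the median 0.37. Of the other members' windows, only a window of Chd9 lay below these medians (33.6% and 0.14). The rest ran from 54.0% (Chd4) to 68.0% (Chd5) G and C, with CpG ratios from 0.62 (Chd9) to 0.99 (Chd4). A match is a description of these letters only. Whether the added copy carries this promoter is not given in the sources used here.

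Genes that work with the CHD proteins were then read from 5 lists, and none of their members was called at either stage. Among all genes tested, only 1.21% were called at E14.5 and 0.0662% at E18.5. The 12 other subunits of NuRD had a median log2 fold change of 0.03 at E14.5 (8 above 0) and −0.01 at E18.5 (5 above 0). The histone deacetylase Hdac1 stood at 0.08 (SE 0.038, adjusted p = 0.346) for E14.5, then −0.01 (SE 0.054, adjusted p = 1.0) at E18.5, and Hdac2 at −0.04 (SE 0.032, adjusted p = 0.681) and −0.03 (SE 0.042, adjusted p = 1.0), by the authors' deposited table. The 10 partners of CHD8, among them the core of the histone H3 lysine 4 methyltransferases, had medians of 0.02 and −0.01. Their scaffold Wdr5 was at −0.02 (SE 0.045, adjusted p = 0.935) and −0.04 (SE 0.054, adjusted p = 1.0), and Ash2l at −0.00 (SE 0.044, adjusted p = 0.991) and 0.03 (SE 0.036, adjusted p = 1.0), by the authors' deposited table.

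For the 9 partners of CHD7 the medians were 0.02 at both stages. Sox2, the progenitor transcription factor, was at 0.16 (SE 0.060, adjusted p = 0.194) at E14.5, beside 0.16 for Chd7, and at 0.05 (SE 0.052, adjusted p = 1.0) at E18.5 by the authors' deposited table. Smarca4, the ATPase of the BAF complexes, was at −0.05 (SE 0.040, adjusted p = 0.651) and −0.04 (SE 0.037, adjusted p = 1.0) by the authors' deposited table. The 10 elongation factors that accompany CHD1 and CHD2 had medians of 0.00 and 0.00, with Ssrp1, the other FACT subunit, at −0.01 (SE 0.038, adjusted p = 0.971) and −0.04 (SE 0.029, adjusted p = 1.0) by the authors' deposited table.

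Related to the family by their motor are the 22 other SNF2-type ATPases of the last list, which was not limited to the nearest relatives. Their medians were 0.01 at E14.5 (11 of 22 above 0) and −0.01 at E18.5 (9 of 22). Smarca1 and Smarca2, the first of them as listed, were at −0.00 (SE 0.057, adjusted p = 0.991) and −0.11 (SE 0.045, adjusted p = 0.239) at E14.5 by the authors' deposited table. At E18.5 the authors' deposited table gives 0.11 for Smarca1 (SE 0.043, adjusted p = 0.636) and 0.02 for Smarca2 (SE 0.033, adjusted p = 1.0). At an unadjusted p under 0.05, 8 entries of the 5 lists differed at E14.5, 2 of 12, 2 of 10, 1 of 9, 0 of 10 and 3 of 22 in the order above, beside 11.5% of all genes. At E18.5 it was 1, Smarca1, beside 5.96%. The lowest adjusted p of the 22 at E14.5 was that of Ino80, the motor of the INO80 complex, named after its values were seen, at 0.18 (SE 0.056, adjusted p = 0.0752) by the authors' deposited table. No test compared the CHD family with these lists.

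**Figure D4:**
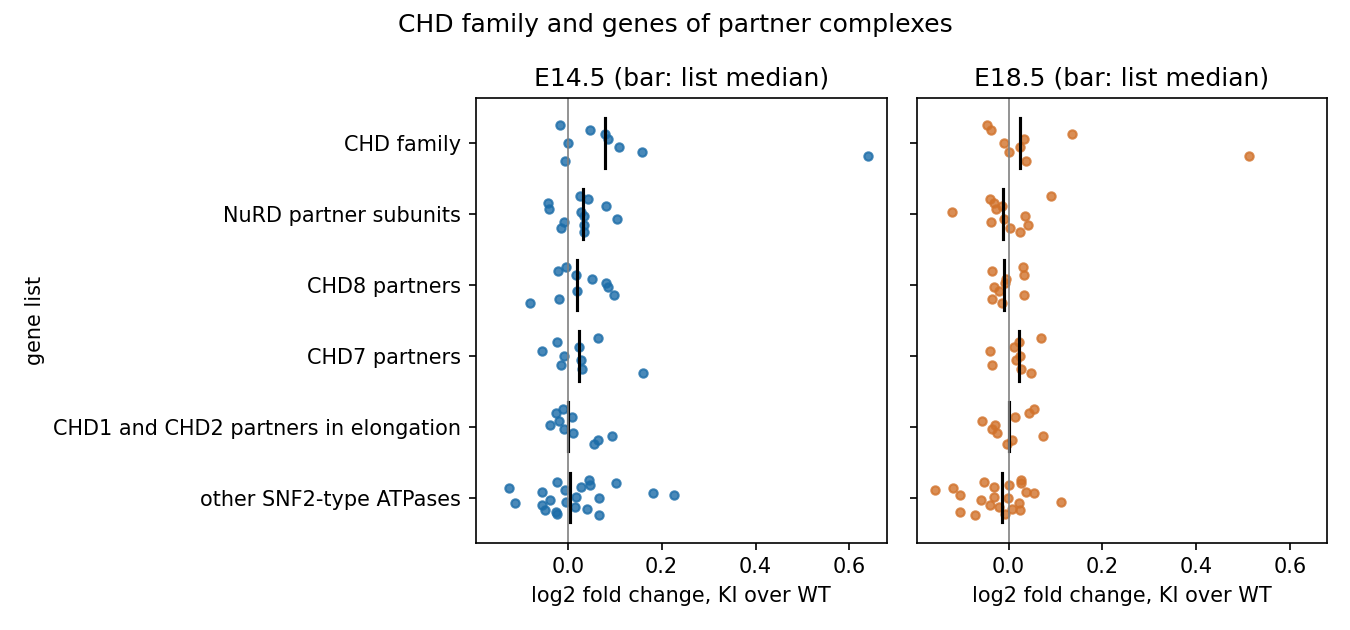
Log2 fold change of KI over WT (x axis) for every gene (points) of the CHD family and of 5 lists of partner genes and relatives (y axis) at E14.5 (left) and E18.5 (right); black bars are list medians. The point at 0.64 and 0.51 is Chd8; the list medians of the other genes lie between −0.01 and 0.03.

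Genes called higher at both stages, as Chd8 was, were named next. In all, 5 genes were called at both, 3.09% of the 162 at E14.5 and 55.6% of the 9 at E18.5, and 4 of them were higher in KI. Besides Chd8 these were Marchf8, a membrane-bound ubiquitin ligase (0.23 and 0.21), and the glycolytic enzyme genes Pfkl (0.23 and 0.20) and Pkm (0.17 and 0.14), as log2 fold changes at E14.5 and E18.5 by the authors' deposited table. Their distances from Chd8 in this pair of values were 0.51, 0.52 and 0.59. Genes not called at both stages were not ranked, and some may lie nearer. No other CHD gene was in this group.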

How the data were processed

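RNA-seq was analysed from 20 libraries (5 WT and 5 KI at each of 2 stages). ChIP-seq and ATAC-seq libraries were left aside. The tools named for the series, per the submitters' processing notes, include DESeq2 1.26.0 and featureCounts 2.0.0, the aligner HISAT2 2.1.0 and the trimmer Trimmomatic 0.39 (build mm10); the annotation, the filters and the design formula are not given in the sources used here. The deposited columns are, per the file headers, a mean normalized count (a signal, not whole counts), a log2 fold change and its SE, a Wald score, and p-values before and after adjustment. The score equalled fold change over SE, and the adjusted p equalled Benjamini-Hochberg over genes that have one.

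Genes carry NCBI gene IDs; 17192 of 17940 (95.8%) and 15064 of 15449 (97.5%) matched a symbol in a RefSeq table of GRCm38.p6, which also gave coordinates. Members were matched by official symbol, since Chd7 is also an older synonym of Chd3. Intervals are the log2 fold change ± the normal 95% quantile times SE. WT and KI levels were estimated from mean and fold change for equal groups. The smallest change that would be called is the lowest called Wald statistic times the member's SE. Stage differences were tested with scipy 1.17.1 and the code was tested on simulated data. Depth per library is unknown. The lowest mean normalized count among members was 1218, and member SEs (0.031 to 0.059) lay below the median of all genes (0.068 and 0.073).

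Named genes are the 9 members, the called genes and the first 2 genes of each list, the neighbours of Chd8 and up to 5 genes called at both stages in its direction. Members, lists and rules were chosen with earlier results of these data known. Alternatives were the genes adjusted over (all with a p, or a mean of at least 100), Benjamini-Yekutieli adjustment, an empirical null, centring and a threshold of 0.1.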

Additional observations from a re-analysis of the deposited data

How the results depend on the processing

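Chd8 was called at both stages under all 6 alternatives, its highest adjusted p being 3.22e-59 (E14.5) and 1.35e-36 (E18.5). At a threshold of 0.1 in place of 0.05, 2 members were called at E14.5 (Chd7 added) and 1 gene of the partner lists (Ino80). Every other alternative gave the same counts of called members and of called list genes. No member changed sign under centring. Over the alternatives the adjusted p ran from 0.0757 to 0.842 for Chd7 at E14.5 and from 0.0971 to 1.0 for Chd3 at E18.5. No member's stage difference was called under its 4 alternatives, and centring the stage ratios on the median gene changed no member's sign but moved the log2 ratio of Chd3 from 0.14 to 0.05 and that of Chd8 from −0.15 to −0.25. No paired analysis was possible because the tables hold no values per library; for the same reason no library was left out in turn. The planned share of Chd8 in the summed level of the family was not run, for want of transcript or coding lengths. Depth is known only through the SE, and the limits given for each member are measured values needed for a call at adjusted p under 0.05, not bounds on the true change.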

Other observations

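Most of the genes that work with the CHD proteins also had lower mean normalized counts at E18.5 than at E14.5, in tables normalized separately and so without a test. The log2 ratio of E18.5 over E14.5 was below 0 in 11 of the 12 other NuRD subunits (median −0.35), 10 of the 10 CHD8 partners (median −0.18), 8 of the 9 CHD7 partners (median −0.45) and 8 of the 10 elongation factors (median −0.06). Of all 13106 genes, 42.1% had a ratio below 0, and the median was 0.09. The ratio was below 0 in 17 of the 22 other SNF2-type ATPases (median −0.35). Among the latter, named after their values were seen, Smarca2, an ATPase of BAF complexes, stood at 0.82 and its alternative Smarca4 at −0.46, while Smarca1 and Smarca5, the alternative ISWI ATPases, stood at 0.70 and −1.02.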
